A study of Mus musculus with 18 samples.

Results

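The immediate early genes are 37 genes whose transcripts appear within minutes of a stimulus, and they were followed across 18 arrays of mouse white matter. Members were taken from a fixed list of symbols. A probe set counted towards a member where the platform annotation gave it exactly 1 symbol and that symbol, or a synonym, was on the list. All 37 members were measured, by 229 probe sets, among 20416 genes in all, and all 37 were among the 16332 genes tested after the lowest 20% of genes by mean signal had been left out. A single further probe set, annotated to both Klf6 and Park7, was not used. Each gene was given, per array, the median log2 value over its probe sets.

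The arrays were hybridised with RNA from the caudal part of the corpus callosum, a white matter tract, of C57BL/6 mice. Every mouse was fed 0.2% cuprizone (CPZ), a chelator of copper under which oligodendrocytes die and myelin is lost. The groups were Trem2 knockout (KO) at the 12-week stage with 6 arrays, wild type (WT) at the 12-week stage with 5, KO at the 6-week stage with 3 and WT at the 6-week stage with 4. TREM2 is a surface receptor of microglia and other myeloid cells, and the labels name no cell type to which its knockout is limited. The labels do not settle whether the stage means age or time on CPZ, and no arrays of mice without CPZ are analysed here. Since the labels do not tie each array to its own mouse, p-values cover only the spread between these samples, part of which may be technical.

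Immediate early genes need no new protein for their induction. Kinase cascades and calcium signals act on factors already bound at their promoters, such as serum response factor with its ELK partners and CREB, and the transcripts, many with AU-rich elements that speed their decay, then disappear again. Several encode transcription factors of the AP-1, EGR, NR4A and KLF families, while others, such as ZFP36 and DUSP1, end the response. In brain tissue they are known as markers of neuronal firing, and they are also induced in glia, microglia and blood vessels by injury, growth factors and inflammatory signals.

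The Trem2 level was examined first as a check of the genotype labels. Trem2 lay between 4.79 and 5.59 in KO and between 6.83 and 7.86 in WT at 12 weeks, and between 5.42 and 6.05 in KO and between 6.44 and 8.42 in WT at 6 weeks. Both stages thus had every KO array below every WT array. Its difference was -2.09 ± 0.28 (SE; limma adjusted p = 0.00253; exact permutation p = 0.00216) at 12 weeks and -1.49 ± 0.36 (SE; limma adjusted p = 0.248; exact permutation p = 0.0571) at 6 weeks, where it did not pass. A pair of arrays stood apart from the others and touched many members. KO replicate 2 of 6 weeks had the highest mean member score of all 18 arrays and WT replicate 4 of 6 weeks the lowest, where the score is the mean over members of the log2 value centred on each gene's mean. These were also the arrays with the lowest quality weights when limma estimated 1 weight per array, 0.446 and 0.502. For 6 weeks, the counts of positive, passing and non-overlapping members are therefore also given without 1 or both of them. So are the median over all members and the members that moved most.

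KO and WT were first compared at 6 weeks, to see how the early genes differed under CPZ when TREM2 was missing. Of the 37 members, 27 had a positive and 10 a negative log2 difference, with a median of 0.30 and a range of -0.64 to 1.92. Over all genes tested the median difference was 0.00, with 49.6% above 0. In limma's test, adjusted by Benjamini-Hochberg over 16332 genes with a threshold of 0.05, 1 member passed, Zfp36, which was higher in KO, against 0.0429% of all genes. At an unadjusted p under 0.05, 11 members were higher and 0 lower, against 3.26% and 2.17% of all genes. These unadjusted counts are given with all arrays only. The model pools 1 spread per gene over the 4 groups. In KO arrays of 6 weeks the SD was 1.14 for Fos and 1.40 for Ier2, against at most 0.35 and 0.40 in the other groups. For Zfp36 and Klf2 it was 0.26 and 0.25, within and below the range of the other groups. Where the KO arrays of 6 weeks spread more, the pooled SE and limma p understate their spread. Without KO replicate 2, the differences of Nr4a1, Junb, Myc and Per1, which are among the 11, were 0.38, 0.28, 0.35 and 0.30. Those of Zfp36 and Klf2, also among them, were 1.03 and 0.86. Without WT replicate 4 as well, Nr4a1, Junb, Myc and Per1 had 0.22, 0.07, 0.08 and 0.07, and Zfp36 and Klf2 had 1.04 and 1.02. Every KO array lay above every WT array in 6 members (16.2%), namely Fos, Klf2, Ier2, Zfp36, Btg2 and Dusp1, against 2.72% of all genes, and below every WT array in 0 members, against 2.36%. In bulk tissue a change in the number of cells that hold a transcript and a change in RNA per cell cannot be told apart.

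**Figure D1:**
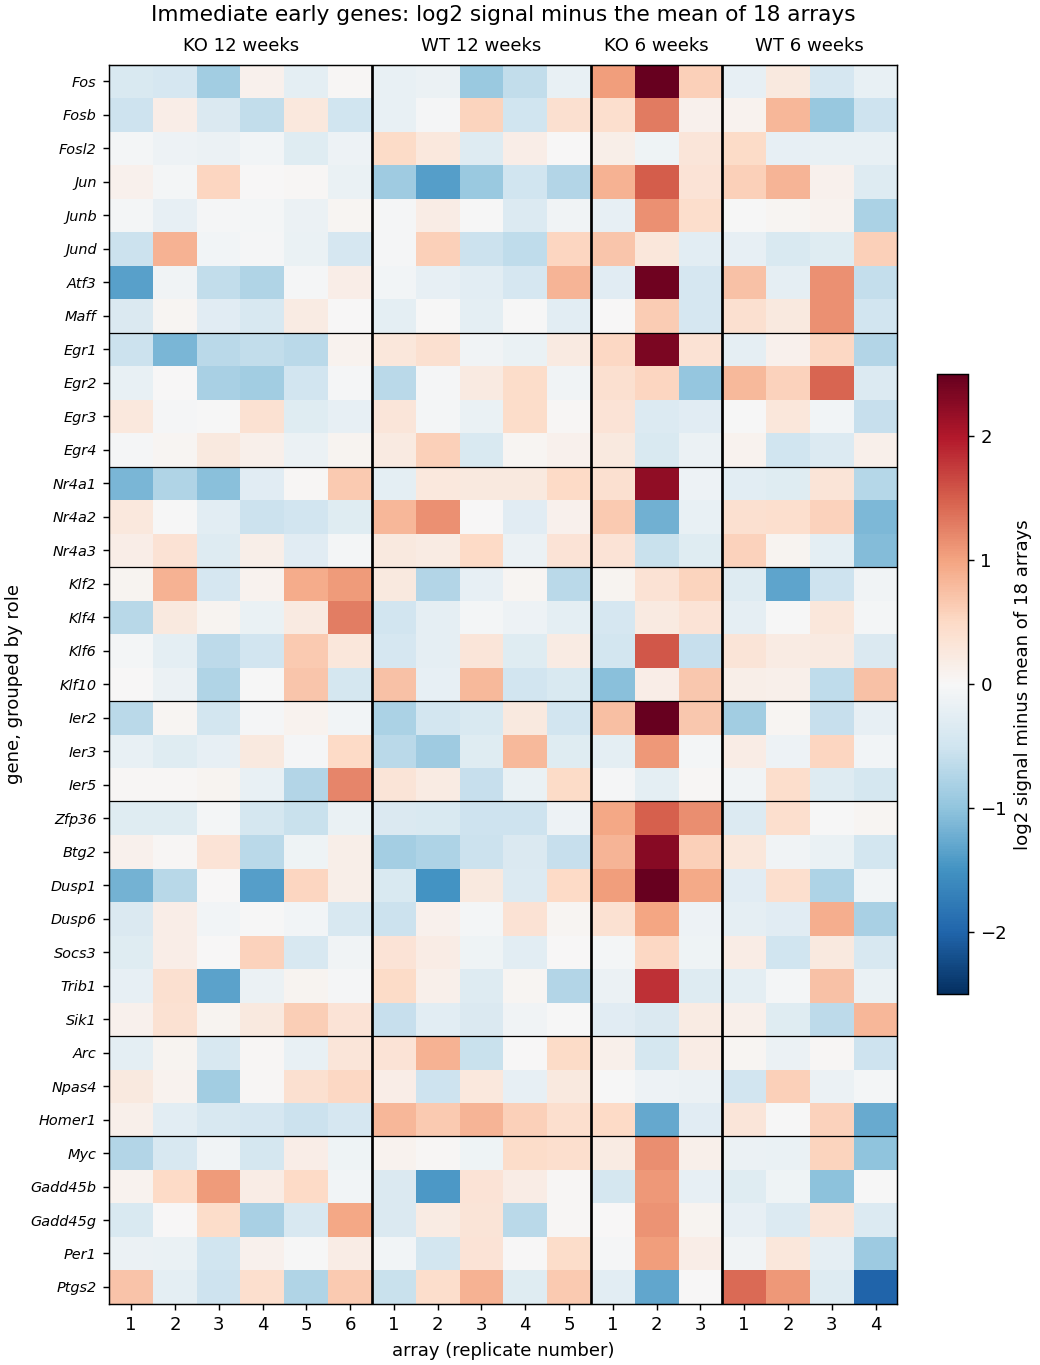
Log2 signal of the 37 members (rows, grouped by role and divided by thin lines) in the 18 arrays (columns, replicate numbers within each group), each centred on the gene's mean over 18 arrays; red is above and blue below that mean. KO replicate 2 of 6 weeks is the most intensely red column, and it held the highest value of 19 members.

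The member that passed at 6 weeks is one of the genes that restrain the early response. Of the 7 members that act in feedback and RNA decay, 6 had positive differences, with a median of 0.51. Without KO replicate 2 these became 5 and 0.22. Without WT replicate 4 as well, 4 were positive and the median was 0.24. Zfp36 encodes tristetraprolin, which binds AU-rich elements and speeds the decay of many cytokine and early gene transcripts. Its log2 signals were 6.60, 7.12 and 6.79 in the KO arrays, against 5.29, 6.05, 5.63 and 5.68 in the WT arrays of 6 weeks. All KO arrays were above all WT arrays, and KO replicate 2 was only slightly above the other KO arrays. The log2 difference was 1.18 ± 0.20 (SE), which is 2.26-fold, with a limma adjusted p of 0.0301 and an exact two-sided permutation test gave 0.0286, the lowest p open to 35 arrangements. Without KO replicate 2 the difference was 1.03 with an adjusted p of 0.308, and without KO replicate 3, WT replicate 1, WT replicate 3 or WT replicate 4 the adjusted p was 0.0803, 0.103, 0.0609 and 0.0567 in turn, so the call rested on each of these arrays. Zfp36 was represented by 2 probe sets that disagreed in size. The brighter had means of 9.30 in KO and 7.20 in WT, a difference of 2.11, and the dimmer, near the low end of the scale, had 4.37 in KO and 4.13 in WT, a difference of 0.24.

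Dusp1, a nuclear phosphatase that switches off MAP kinases, had log2 signals of 7.56, 9.23 and 7.47 in KO arrays, against 6.24, 6.93, 5.74 and 6.44 in WT arrays. Btg2, an antiproliferative partner of the CCR4-NOT deadenylase, had 7.25, 8.67 and 6.99 in KO arrays, against 6.69, 6.31, 6.23 and 5.94 in WT arrays. For both genes the KO and WT arrays did not overlap, and KO replicate 2 stood more than 1 log2 unit above the other KO arrays. The difference was 1.75 ± 0.51 (SE) for Dusp1 (limma adjusted p = 0.548) and 1.34 ± 0.32 (SE) for Btg2 (limma adjusted p = 0.236). Both reached the smallest exact permutation p of 0.0286. The 4 probe sets of Dusp1 ran from 1.16 to 2.34 and the 2 of Btg2 were 1.30 and 1.39. The other feedback genes had smaller differences with adjusted p-values of 0.993 or above. They were 0.51 for Dusp6, a cytoplasmic ERK phosphatase, 0.39 for Trib1, a pseudokinase, 0.24 for Socs3, an inhibitor of cytokine receptor signalling, and -0.14 for Sik1, a salt-inducible kinase that holds CREB coactivators in the cytoplasm.

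Promoters of the 4 members with the smallest p at 6 weeks among those with an entry are shown, with matches to elements through which early genes are commonly induced. RefSeq windows (GRCm38.p6) of 300 bases, from 250 before to 50 after the gene start, were held for 29 of the 37 members. Egr1, Egr3, Klf10, Ier2, Trib1, Sik1, Arc and Myc had none. Windows were searched on both strands for the CArG box bound by serum response factor, for the full cyclic AMP response element TGACGTCA, for its 5-base core TGACG, which the full element contains on each strand, and for the AP-1 site TGANTCA. Capitals mark the matches. The windows lie at chr7:28379179-28379478 on the minus strand for Zfp36, chr12:85473640-85473939 on the plus strand for Fos, chr1:134079106-134079405 on the minus strand for Btg2 and chr17:26508423-26508722 on the minus strand for Dusp1, and each is written 5′ to 3′ along its gene.
Zfp36: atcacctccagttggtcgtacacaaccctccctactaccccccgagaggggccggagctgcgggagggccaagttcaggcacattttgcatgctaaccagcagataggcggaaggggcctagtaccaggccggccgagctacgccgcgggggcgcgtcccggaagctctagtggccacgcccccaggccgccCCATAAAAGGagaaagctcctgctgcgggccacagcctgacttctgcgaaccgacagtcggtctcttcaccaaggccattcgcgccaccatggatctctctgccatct
Fos: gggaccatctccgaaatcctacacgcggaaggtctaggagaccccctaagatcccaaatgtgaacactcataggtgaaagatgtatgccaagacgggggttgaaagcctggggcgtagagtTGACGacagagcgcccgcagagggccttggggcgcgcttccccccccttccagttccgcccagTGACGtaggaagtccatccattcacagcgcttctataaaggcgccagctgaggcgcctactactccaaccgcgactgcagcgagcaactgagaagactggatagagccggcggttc
Btg2: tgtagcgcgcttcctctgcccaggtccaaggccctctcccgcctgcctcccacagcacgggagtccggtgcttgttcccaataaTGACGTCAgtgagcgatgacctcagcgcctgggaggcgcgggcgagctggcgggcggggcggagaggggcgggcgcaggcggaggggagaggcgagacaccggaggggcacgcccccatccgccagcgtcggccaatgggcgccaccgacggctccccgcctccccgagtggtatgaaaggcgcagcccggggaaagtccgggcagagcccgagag
Dusp1: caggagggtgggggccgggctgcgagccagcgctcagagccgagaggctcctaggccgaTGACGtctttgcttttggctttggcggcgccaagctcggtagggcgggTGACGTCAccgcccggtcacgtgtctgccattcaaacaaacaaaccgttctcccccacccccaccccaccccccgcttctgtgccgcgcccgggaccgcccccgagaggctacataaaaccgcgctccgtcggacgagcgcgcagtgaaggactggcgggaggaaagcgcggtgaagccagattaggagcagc
Zfp36 held 1 CArG box, with its first base at position -58, and it was the only member with one in its window (3.45% of the 29, against 1.57% of all 27025 promoters). Btg2 and Dusp1 held the full cyclic AMP response element, at positions -166 and -143, and were the only members with it (6.9%, against 1.88% of all promoters). The Fos window held 2 copies of the TGACG core, at -129 and -66. Over all members the core was found in 16 windows (55.2%), against 21.0% of all promoters, a search added after the full element had been counted. The AP-1 site was in 0 of the 29 windows, against 7.93% of all promoters. A match is a run of letters and does not show that a factor binds there. Elements farther than 250 bases before the start lay outside the windows, and near matches were not counted. A window without a match therefore does not show that the gene, Fos included, lacks the element.

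Among the 8 AP-1 and ATF subunits, 7 had positive differences at 6 weeks, with a median of 0.46. Without KO replicate 2 these became 6 and 0.28. Without WT replicate 4 as well, 6 were positive and the median was 0.14. Fos, the inducible partner of JUN, had log2 signals of 6.68, 8.40 and 6.23 in KO arrays, against 5.44, 5.88, 5.23 and 5.46 in WT arrays. The lowest KO array was above the highest WT array, and replicate 2 was far above the other KO arrays. The difference was 1.60 ± 0.37 (SE), 3.03-fold, with a limma adjusted p of 0.224 and an exact permutation p of 0.0286. All 4 probe sets were higher in KO, by 1.16 to 2.35. The differences of Fosb, Junb and Jun were 0.75, 0.63 and 0.60, with limma adjusted p-values of 0.941, 0.831 and 0.920. Without KO replicate 2 they were 0.40, 0.28 and 0.30, and without WT replicate 4 as well 0.27, 0.07 and 0.09. The KO and WT arrays of these 3 genes overlapped. Atf3, a stress-induced repressor, had 8.15 in KO replicate 2, while the other KO arrays had 5.44 and 5.30 and WT arrays 5.13 to 6.87, so that its difference of 0.31 hid a mean of the other KO arrays that was lower than WT (-0.62). Jund and Fosl2 had differences of 0.30 and 0.13, and Maff, a small MAF protein without an activation domain, had -0.24.

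**Figure D2:**
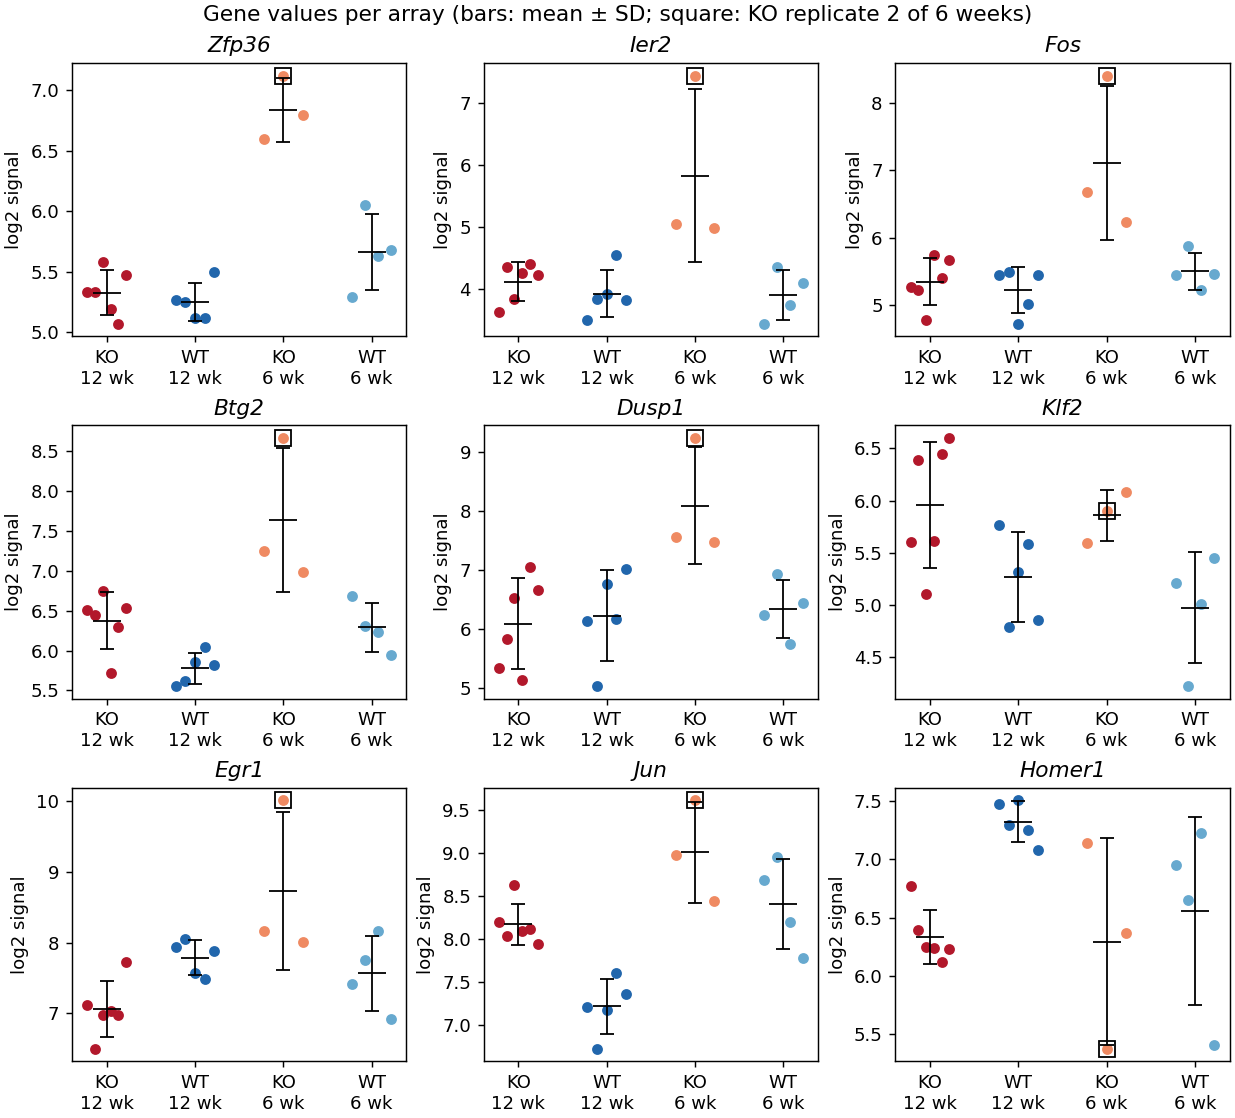
Log2 signal per array for 9 members in the 4 groups; points are arrays, horizontal and vertical bars are the group mean and SD, and the square is KO replicate 2 of 6 weeks. Zfp36, Ier2, Fos, Btg2, Dusp1 and Klf2 have every KO array of 6 weeks above the WT arrays of that stage, while Jun is higher and Homer1 lower in every KO array of 12 weeks.

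The zinc finger and nuclear receptor families were mixed. Egr1, which is used as a marker of neuronal activity and growth factor signalling, had log2 signals of 8.16, 10.01 and 8.01 in KO arrays, against 7.42, 7.76, 8.16 and 6.92 in WT arrays. KO replicate 1 equalled the highest WT array to 2 decimals and replicate 3 lay below it, so the groups overlapped. The difference was 1.16 ± 0.38 (SE), with a limma adjusted p of 0.668 and an exact permutation p of 0.0857. It was 0.52 without KO replicate 2 and 0.31 without WT replicate 4 as well. Egr2 had -0.64 ± 0.39 (SE; limma adjusted p = 0.973), Egr3 0.00 and Egr4 0.07. Nr4a1, an orphan nuclear receptor induced by calcium and cytokine signals, had 1.07 ± 0.45 (SE; limma adjusted p = 0.842), while its relatives Nr4a2 and Nr4a3 had -0.31 and -0.01. All 8 probe sets of Nr4a1 were above 0 at 6 weeks. Its difference was only 0.38 without KO replicate 2, and 0.22 without WT replicate 4 as well.

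Klf2, a factor of quiescent endothelium and myeloid cells, had log2 signals of 5.59, 5.90 and 6.08 in KO arrays, against 5.21, 4.22, 5.01 and 5.45 in WT arrays. The groups did not overlap, and KO replicate 2 lay between the other KO arrays. The difference was 0.88 (limma adjusted p = 0.819), but only 1 of the 3 probe sets was above 0. That was the middle one in signal, with means of 5.86 in KO and 4.97 in WT, which are those of the gene value. The brightest had 8.45 in KO and 8.74 in WT and gave the lowest difference, -0.29. Klf4, Klf6 and Klf10 had differences of 0.04, 0.07 and -0.16. Ier2, a small nuclear protein induced with Fos, had 5.06, 7.45 and 4.99 in KO arrays, against 3.44, 4.36, 3.74 and 4.10 in WT arrays. All KO arrays were above all WT arrays, and the WT values lay close to the filter level of 3.41, so the size is uncertain. The difference was 1.92 ± 0.43 (SE), 3.79-fold and the highest of any member, with a limma adjusted p of 0.207 and an exact permutation p of 0.0286. Ier3 and Ier5 differed by 0.13 and 0.02.

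With all arrays, the 3 members listed as neuronal activity genes, Arc, Npas4 and Homer1, had small differences at 6 weeks, none of which passed. Fos and Egr1, which are also used as markers of neuronal firing, had 1.60 and 1.16, as given above, and did not pass either. Arc, which encodes a synaptic protein that regulates glutamate receptor uptake, had log2 signals of 6.26, 5.70 and 6.32 in KO arrays, against 6.20, 6.00, 6.18 and 5.63 in WT arrays. The values of both groups covered almost the same range. The difference was 0.09 ± 0.28 (SE; 95% interval -0.49 to 0.67; limma adjusted p = 0.999; exact permutation p = 0.657), and its sign changed with the probe set, the sex or the array left out. Npas4, a factor induced by calcium entry in neurons, had -0.08, and Homer1, a scaffold of the postsynapse with a short activity-induced form, had -0.27. The Npas4 means, 3.90 in KO and 3.97 in WT, lay close to the filter level of 3.41, so the size is uncertain. Homer1 had 0.19 without KO replicate 2 and -0.65 without WT replicate 4. Of the 5 growth, stress and clock genes, Myc (0.69), Per1 (0.63), Gadd45g (0.55) and Gadd45b (0.51) had positive differences and Ptgs2, which encodes cyclooxygenase 2, had -0.56, with no adjusted p below 0.885. Without KO replicate 2 the values of Myc, Per1, Gadd45g and Gadd45b were 0.35, 0.30, 0.18 and 0.04, and that of Ptgs2 was -0.17. Without WT replicate 4 as well they were 0.08, 0.07, 0.11 and 0.16, and that of Ptgs2 was -0.86.

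**Figure D3:**
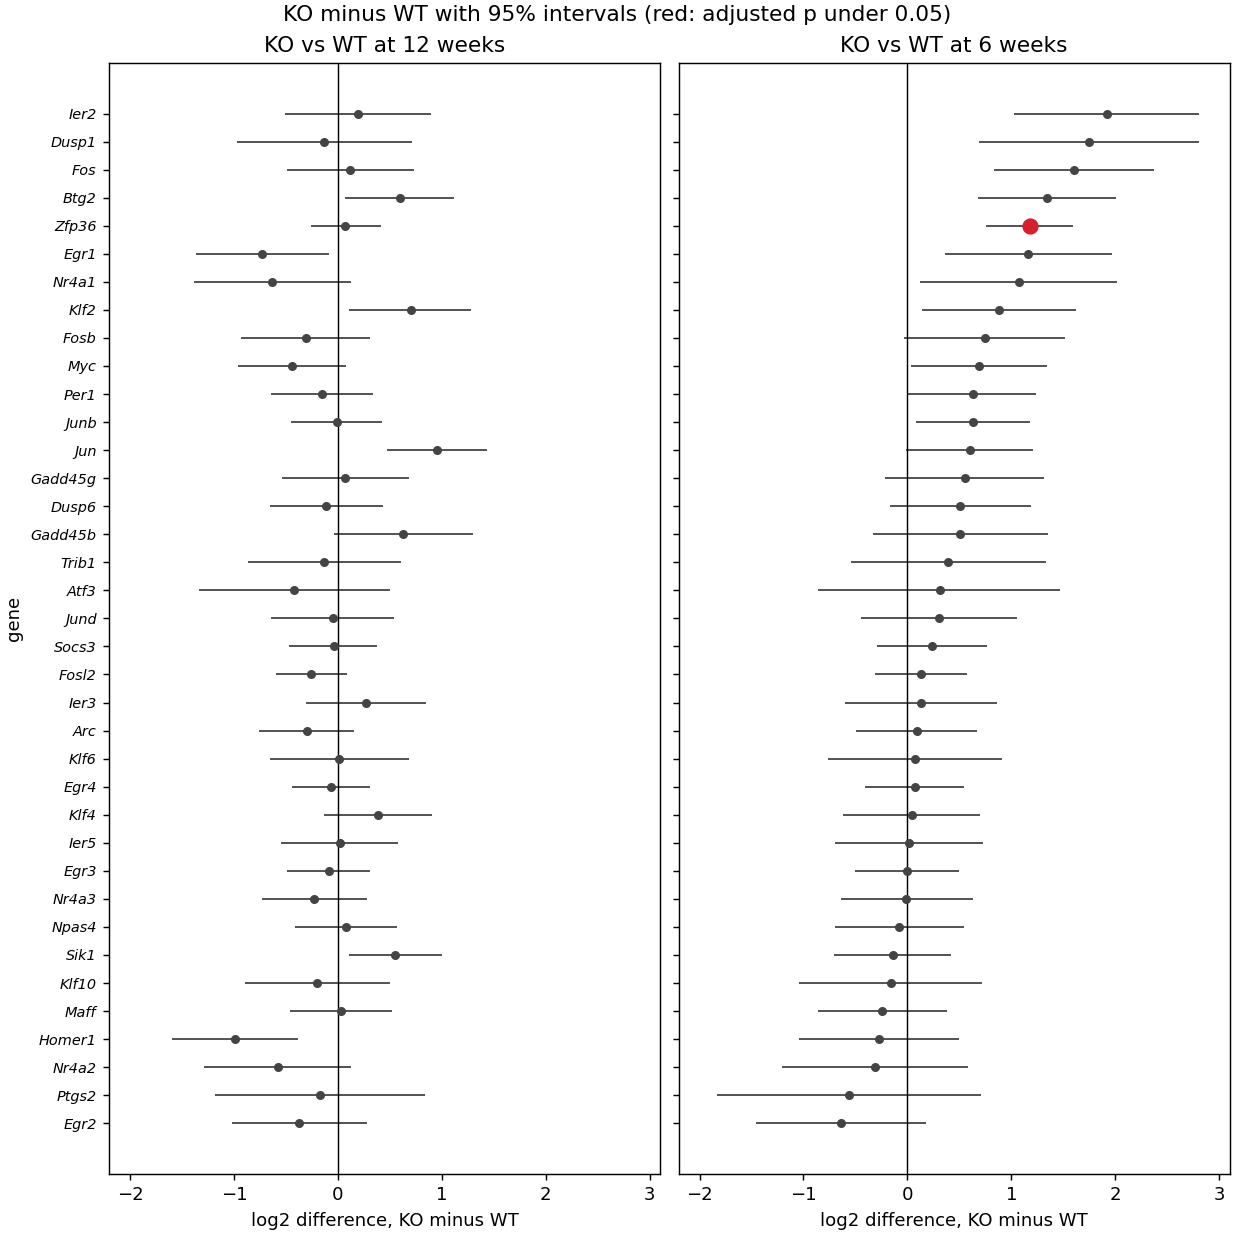
Log2 difference of KO from WT for the 37 members at 12 weeks (left) and 6 weeks (right), with 95% intervals from the limma model, ordered by the difference at 6 weeks; a red point marks an adjusted p under 0.05. Zfp36 at 6 weeks (1.18) is the only red point, and Jun (0.95) and Homer1 (-0.99) have the highest and lowest values at 12 weeks.

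The high values at 6 weeks were unevenly shared among the KO arrays. KO replicate 2 was the highest of all 18 arrays in 19 of the 37 members (51.4%), against 11.9% of all genes. It exceeded the mean of the other KO arrays of 6 weeks by more than 1 log2 unit in 15 members (40.5%), against 6.82% of all genes, and was lower by more than 1 in 3 members (8.11%), namely Ptgs2, Homer1 and Nr4a2, against 5.85%. The excess was 2.78 for Atf3, 2.42 for Ier2, 2.08 for Nr4a1, 2.07 for Klf6, 2.05 for Trib1, 1.94 for Fos and 1.93 for Egr1. It was 0.42 for Zfp36 and 0.06 for Klf2. The other KO arrays were not level with WT in every member: their mean was above that of WT by 1.18 for Dusp1, 1.11 for Ier2, 1.03 for Zfp36, 0.95 for Fos, 0.86 for Klf2 and 0.83 for Btg2. Atf3 and Klf6, each with -0.62, had a mean below WT instead. With KO replicate 2 left out, 26 members had a positive difference and the median of all 37 was 0.19, and 9 changed sign, namely Atf3, Trib1, Ier3, Klf4 and Klf6 to negative and Egr3, Nr4a2, Nr4a3 and Homer1 to positive values. Without WT replicate 4, 26 were positive and the median was 0.16, and Klf6, Klf10, Ier5, Sik1 and Arc changed sign; the value that moved most was that of Ptgs2, -1.24 against -0.56 with all arrays. Without KO replicate 2 the KO arrays were above all WT arrays in 7 members, the same 6 and Arc, and below them in Klf6, against 5.25% and 5.97% of all genes. Without WT replicate 4 the count was 6 above and 1 below (Egr2), against 4.92% and 4.5%. Without both arrays it was 7 above and 4 below (Atf3, Maff, Egr2 and Klf6), against 8.57% and 9.53%. Of the 37 members 20 then had a positive difference, and the median was 0.07. Atf3 moved most, to -0.90 against 0.31 with all arrays. The 9 that changed sign were Atf3, Klf4, Klf6, Ier3, Ier5, Dusp6, Socs3, Trib1 and Sik1.

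**Figure D4:**
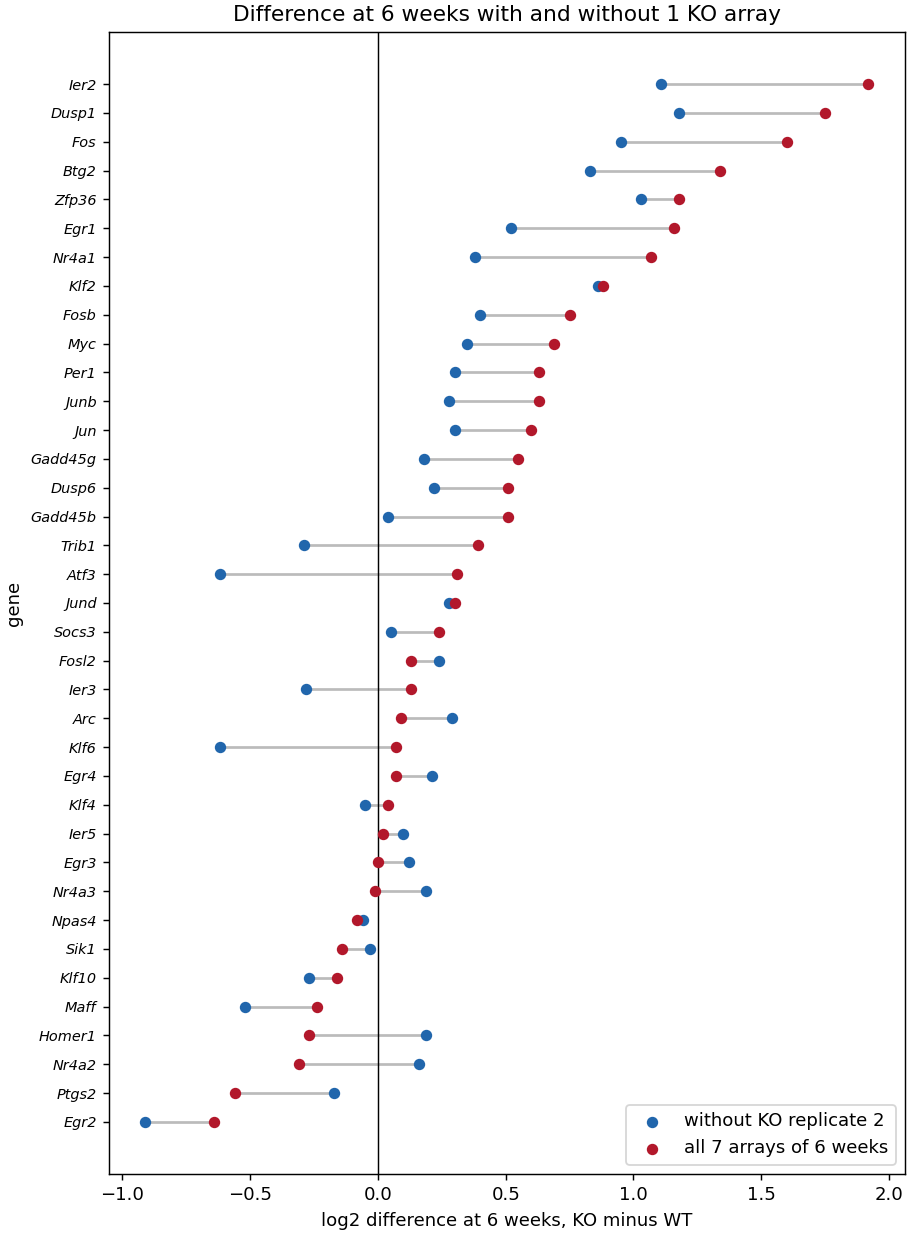
Log2 difference of KO from WT at 6 weeks for each member with all 7 arrays of that stage (red) and without KO replicate 2 (blue), joined by grey lines. Atf3 and Klf6 are among the genes that cross 0, at -0.62 each without that array, while Dusp1, Ier2, Zfp36 and Fos stay at 0.95 or above.

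Marker levels of cell types also differed between these arrays. In KO replicate 2 the pan-myeloid score was 1.32, the highest of the 18 arrays, and the homeostatic microglia score was 1.71, while the remaining KO arrays had 0.12 and 0.57 and the WT arrays of 6 weeks -0.96 to -0.29. Its neuron score was -1.61, the lowest of the 18 arrays, while the remaining KO arrays had 0.09 and 0.24 and the WT arrays -0.94 to 0.60. Its oligodendrocyte score was 1.33, while the remaining KO arrays had 0.42 and -0.53 and the WT arrays 0.01 to 2.15. The summed linear signal of the 14 measured neuron markers ran from 1833 to 8585 in KO and from 2809 to 10225 in WT at 6 weeks. That of the 11 measured homeostatic microglia markers ran from 2505 to 7842 in KO and from 1207 to 2381 in WT. No background level is in the table, so no marker can be called absent. In WT replicate 4 the choroid plexus and ependyma score was 2.52, against -0.74 to -0.20 in the other WT arrays, the oligodendrocyte score was 2.15, the highest of the 18 arrays, the pan-myeloid score was -1.05, the lowest, the neuron score was -0.94, and the member score was -0.39, against 0.05 to 0.07. The median difference of KO from WT at 6 weeks was 1.59 for homeostatic microglia, 0.91 for pan-myeloid, 0.51 for astrocyte, -0.30 for neuron and -0.62 for oligodendrocyte markers. The part of cell makeup in the member differences was not tested. Heat shock genes, the chaperones of the stress response, had a median difference of -0.08 over 8 tested genes, and 0 of them passed.

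**Figure D5:**
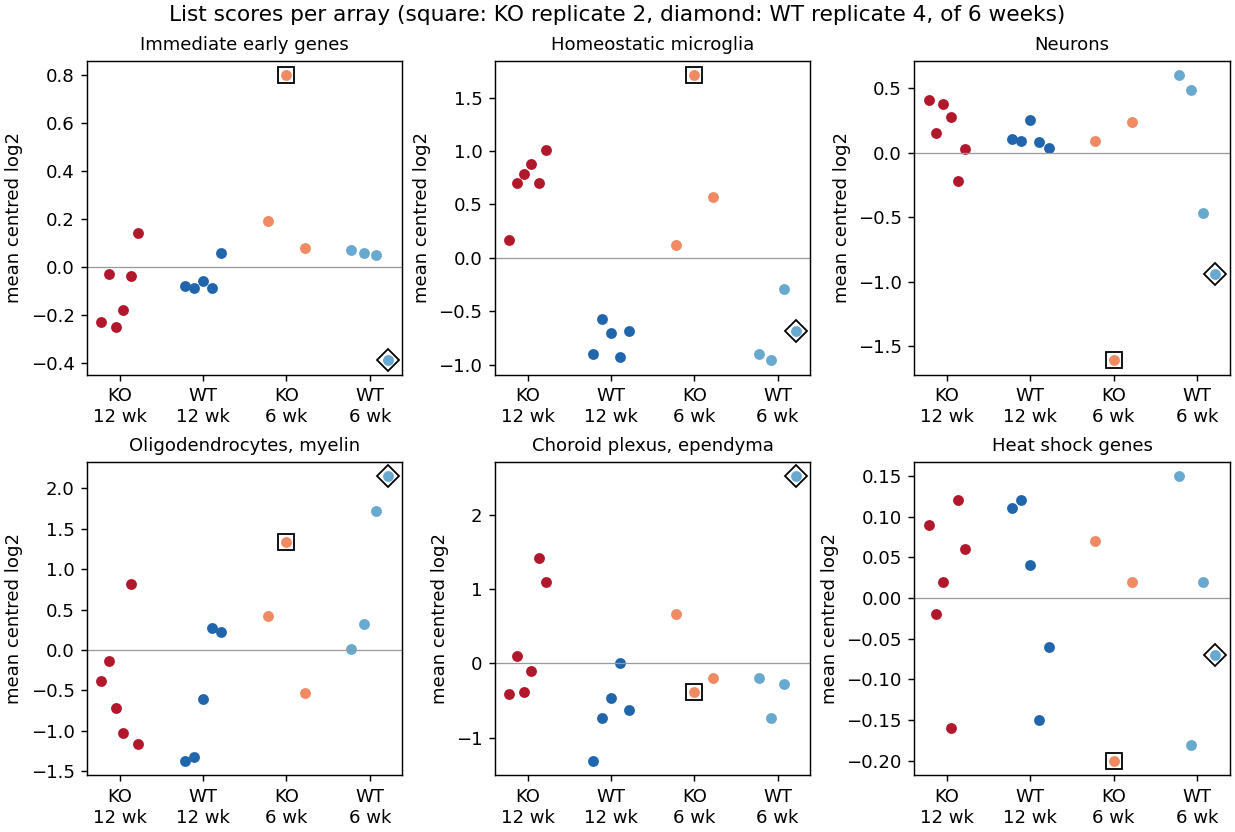
Mean centred log2 value of 6 gene lists per array in the 4 groups; the square is KO replicate 2 and the diamond WT replicate 4 of 6 weeks. KO replicate 2 has the highest early gene score (0.80) and microglia score (1.71) and the lowest neuron score (-1.61), and WT replicate 4 has the lowest early gene score (-0.39) and the highest choroid plexus score (2.52).

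At 12 weeks, where the groups were larger, the early genes had differences on both sides of 0. Of the 37 members 15 had a positive and 22 a negative difference, with a median of -0.07, against 0.02 and 52.4% above 0 over all genes. None of the 37 passed the limma test, against 0.441% of all genes (0.367% higher and 0.0735% lower), and at an unadjusted p under 0.05 there were 4 higher and 2 lower members, against 6.87% and 4.22%. KO arrays were above all WT arrays in 2 members (5.41%), Jun and Sik1, against 1.7% of all genes, and below all in 1 member (2.7%), Homer1, against 0.771%. The mean member score ran from -0.25 to 0.14 in KO and from -0.09 to 0.06 in WT.

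Jun, the central AP-1 subunit, had a lowest, median and highest log2 signal of 7.94, 8.11 and 8.63 in KO arrays, against 7.21, 6.73, 7.18, 7.61 and 7.37 in WT arrays. Every KO array was above every WT array. The difference was 0.95 ± 0.23 (SE), 1.93-fold, with a limma adjusted p of 0.0731 and an exact permutation test gave 0.00216, the lowest p open to 462 arrangements. Its adjusted p passed in several other fits, at 0.0383 without KO replicate 2 and 0.0401 without WT replicate 4 of 6 weeks, which are not arrays of this comparison and enter only the shared spread. All 6 probe sets were higher in KO, by 0.27 to 1.01. The difference was 1.08 in females and 0.90 in males. Within each sex the KO and WT arrays of 12 weeks also differed in order of deposition, which cannot be told apart from genotype there. Homer1 had a lowest, median and highest signal of 6.12, 6.25 and 6.77 in KO arrays, against 7.48, 7.30, 7.51, 7.25 and 7.08 in WT arrays. Every KO array was below every WT array. The difference was -0.99 ± 0.29 (SE), with a limma adjusted p of 0.178 and the same exact permutation p of 0.00216. Of its 19 probe sets 1 was above 0, and they ran from -1.41 to 0.36; no source used here says which of them detect the short activity-induced form. Cell type markers differed at this stage as well. The median difference was 1.54 for the 11 homeostatic microglia markers, all higher in KO and 7 of them called, 0.98 for pan-myeloid (2 of 10 called), 0.54 for astrocyte (1 of 9 called), 0.98 for choroid plexus and ependyma (0 of 8 called) and -0.08 for neuron markers (0 of 14 called). Their part in the values of Jun, Homer1 and the other members at 12 weeks was not tested.

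Sik1 had a lowest, median and highest log2 signal of 5.13, 5.37 and 5.68 in KO arrays, against 4.49, 4.81, 4.70, 4.98 and 5.06 in WT arrays. The groups did not overlap, by a narrow margin. The difference was 0.55 ± 0.21 (SE; limma adjusted p = 0.342; exact permutation p = 0.00216), and 12 of 14 probe sets were above 0; the brightest of them gave 0.08 and the mean over them 0.30. Egr1 had 6.50, 7.0 and 7.73 in KO arrays, as lowest, median and highest, against 7.94, 8.05, 7.57, 7.49 and 7.88 in WT arrays. Only KO replicate 6 reached the WT range. The difference was -0.73 ± 0.31 (SE; limma adjusted p = 0.375; exact permutation p = 0.00866), and all 3 probe sets were below 0. Btg2 had 5.72, 6.48 and 6.75 in KO arrays, against 5.55, 5.62, 5.86, 6.04 and 5.82 in WT arrays. KO replicate 4, at 5.72, lay within the WT range and the other 5 KO arrays above it. The difference was 0.60 ± 0.25 (SE; limma adjusted p = 0.379; exact permutation p = 0.013), and its 2 probe sets disagreed in size, at 0.15 and 1.04. Klf2 had 0.70 (limma adjusted p = 0.356, exact permutation p = 0.0606), again with 1 probe set of 3 above 0, and the brightest gave -0.38.

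Fos had similar KO and WT values at 12 weeks. Its log2 signal had a lowest, median and highest value of 4.78, 5.33 and 5.74 in KO arrays, against 5.45, 5.49, 4.72, 5.02 and 5.45 in WT arrays. The ranges overlapped almost fully, with a difference of 0.12 ± 0.29 (SE; 95% interval -0.49 to 0.73; limma adjusted p = 0.910; exact permutation p = 0.587) whose sign changed between probe sets. Arc had 5.75, 6.07 and 6.44 in KO arrays, against 6.49, 7.01, 5.58, 6.15 and 6.62 in WT arrays. These overlapped too, with a difference of -0.30 ± 0.22 (SE; 95% interval -0.76 to 0.15; limma adjusted p = 0.637; exact permutation p = 0.247). Zfp36, the gene that passed at 6 weeks, differed by 0.07 (95% interval -0.26 to 0.41; limma adjusted p = 0.893). All 4 EGR genes and all 3 NR4A receptors had negative differences, of -0.73 to -0.07 and of -0.63 to -0.23, and none of them passed. Differences of the other members at this stage lay between -0.44 for Myc and 0.63 for Gadd45b.

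The stage comparison within KO mice asks which early genes differed between 12 and 6 weeks. Zfp36 was the only gene of the 16332 that passed, so 1 member was called against 0.00612% of all genes. Its signals were between 5.07 and 5.58 in KO arrays of 12 weeks, against 6.60, 7.12 and 6.79 in those of 6 weeks. No array of 12 weeks came within 1 log2 unit of the arrays of 6 weeks. The difference of 12 from 6 weeks was -1.51 ± 0.19 (SE), with a limma adjusted p of 0.00174, and it stayed under 0.05 in all 18 fits that each left out 1 array (0.00109 to 0.0491). It was 0.0549 with only the KO groups in the fit, 0.0749 without both KO replicate 2 and WT replicate 4 of 6 weeks, 0.849 in females alone and 0.181 in males alone, with differences of -1.55 to -1.37 in these fits. The next members were Fos, with -1.75 ± 0.34 (SE; limma adjusted p = 0.172), and Egr1, with -1.67 ± 0.36 (SE; limma adjusted p = 0.205). Ier2 (-1.71), Btg2 (-1.26) and Dusp1 (-2.0) shared a limma adjusted p of 0.264. Without KO replicate 2 of 6 weeks the differences were -1.11 for Fos, -1.03 for Egr1, -0.90 for Ier2, -0.74 for Btg2 and -1.43 for Dusp1. Arc differed by -0.02. Over the 37 members 25 were lower and 12 higher at 12 weeks, with a median of -0.26, against 0.02 and 52.2% above 0 over all genes. At an unadjusted p under 0.05, 11 members were lower and 0 higher, against 2.8% and 4.7% of all genes. These counts of higher and lower members are given with all arrays only. All 8 AP-1 and ATF subunits had negative differences. Without KO replicate 2 of 6 weeks Maff had 0.07, Atf3 -0.09 and Junb -0.18, while the remaining subunits had -1.11 to -0.27. Between the same arrays the median difference was -0.86 for the 9 oligodendrocyte and 0.56 for the 14 neuron markers, of which 0 passed, and their part in the member differences was not tested.

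Within WT mice the median member difference of 12 from 6 weeks was 0.08, with 24 members higher and 13 lower, against 0.01 and 51.2% above 0 over all genes. None of the members passed, against 0.0184% of all genes, and 1 was higher and 2 were lower at an unadjusted p under 0.05, against 3.94% and 4.53% of all genes (8.47% in either direction). Jun had log2 signals of 7.21, 6.73, 7.18, 7.61 and 7.37 at 12 weeks, against 8.69, 8.95, 8.20 and 7.78 at 6 weeks. The stages did not overlap, and the difference was -1.18 ± 0.26 (SE; limma adjusted p = 0.164). Homer1 had a difference of 0.76 (limma adjusted p = 0.536), Zfp36 -0.41 (0.550), Egr2 -0.64 (0.626), Maff -0.48 (0.632) and Btg2 -0.51 (0.632). Fos, Egr1 and Arc had -0.27, 0.22 and 0.37. Without WT replicate 4 of 6 weeks the differences were 0.38 for Homer1, 0.01 for Egr1, 0.24 for Arc, -0.29 for Fos and -0.40 for Zfp36. Those of Jun, Egr2, Maff and Btg2 were then -1.39, -0.97, -0.74 and -0.63. The median member difference ran from 0.01 to 0.13 with each array left out. The counts of higher and lower members are given with all arrays only. The median difference was -1.70 for the 9 oligodendrocyte markers, 8 of them lower at an unadjusted p under 0.05, -0.65 for 7 precursor, -1.16 for 8 choroid plexus and ependyma and 1.21 for 3 neutrophil markers, with 0 called in these lists. Their part in the member differences was not tested.

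Whether the stage difference itself depended on genotype was tested with the interaction term of the model. No gene passed, member or not (0% of all genes), while 851 genes (5.21%) had an unadjusted p under 0.05. Of the members 28 had negative and 9 positive values, with a median of -0.35, against 0.02 and 52.1% above 0 over all genes. At an unadjusted p under 0.05, 8 were lower and 0 higher, against 2.32% and 2.89% of all genes. Zfp36 had an interaction of -1.10 ± 0.26 (SE; limma adjusted p = 0.648) and Egr1, which was above WT at 6 weeks and below it at 12, had -1.89 ± 0.49 (SE; limma adjusted p = 0.732). The values were -1.88 for Dusp1, -1.73 for Ier2, -1.70 for Nr4a1 and -1.48 for Fos, with adjusted p-values from 0.802 to 0.838. When KO replicate 2 of 6 weeks was left out they were -1.31 for Dusp1, -0.92 for Ier2, -1.01 for Nr4a1, -0.83 for Fos and -1.25 for Egr1. Arc had -0.39. A different genotype effect at the 2 stages was therefore not shown for any member.

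Of 27 listed kinases and factors upstream of the early response, 24 were tested, with a median difference of 0.08 at 12 weeks and 0.04 at 6 weeks, and 0 passed at either stage. At 12 weeks the smallest p-values were those of the ribosomal S6 kinase Rps6ka1 (0.80; limma adjusted p = 0.211), the ERK1 gene Mapk3 (0.51; 0.228) and Map2k2 (0.37; 0.524). At 6 weeks they were those of the ETS factor Elk3 (0.46; limma adjusted p = 0.993), the JNK2 gene Mapk9 (-0.39; 0.999) and Elk1 (0.40; 0.999). The list of other early response genes held 40, with a median difference of 0.03 at 12 weeks and 0.23 at 6 weeks and again 0 called. Ccn1, a matricellular protein induced by serum response factor, had log2 signals of 7.94, 10.70 and 7.89 in KO arrays, against 5.73, 6.98, 7.0 and 5.71 in WT arrays of 6 weeks. The KO arrays were all above the WT arrays and replicate 2 was again far above the others, with a difference of 2.49 ± 0.57 (SE; limma adjusted p = 0.215), the highest of all genes tested. Csrnp1 and Ccn2 followed with 0.93 and 1.11 (limma adjusted p = 0.713 and 0.753). The differences were 1.56 for Ccn1, 0.34 for Csrnp1 and 0.85 for Ccn2 without KO replicate 2. At 12 weeks the genes with the smallest p were Cdkn1a (-1.26; limma adjusted p = 0.173), Dusp5 (-0.56; 0.352) and Rhob (0.62; 0.354).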

How the data were processed

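RNA of 18 samples (column extraction, whole-transcript amplification and biotin labelling, per the labels' protocols) was hybridised to 1 one-colour array each. The values used are the log2 probe-set values the authors deposited, 241576 probe sets, with array medians of 5.26 to 5.41; their background correction and normalization are not given in the sources used here, and no further normalization was applied. The number of arrays limits the precision.

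Probe sets with exactly 1 annotated symbol (212097) were summarised per gene by the median. Old symbols of the platform annotation were brought up to date through RefSeq (GRCm38.p6), 2668 in all. Genes in the lowest 20% by mean (log2 of 3.41 or less) were left out. A limma model (3.58.1, R 4.3.3) with 4 group means, 14 residual and 5.6 prior degrees of freedom was fitted to all 18 arrays and 16332 genes, two-sided, with Benjamini-Hochberg adjustment over all of them. Single genes were also compared with exact permutation tests of the group means. The members and gene lists were chosen with earlier results of these data known. Full values are given for members that passed or otherwise the 6 with the smallest p in each comparison, with Fos, Egr1, Arc and Trem2 always, and for the 3 smallest p of the upstream and other early response lists in each genotype comparison. Klf2 at 6 weeks was added for its arrays that did not overlap, Atf3 for its outlying array and Zfp36 at 12 weeks for its call at 6 weeks, all after their values were seen.

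Tested on simulated data of 16332 genes, the fit called 42 of 100 genes changed by a log2 of 1 and 91 of 100 changed by 2 for KO against WT at 6 weeks, with 6 false calls, and 68 and 99 at 12 weeks, with 7. Alternatives covered the filter, quantile normalization, the probe-set summary, array weights, the arrays in the fit, replicate number, sex, order of deposition and leaving out each array. Fits of females and males alone and of the 12-week arrays deposited first or second were added after seeing the data. So were the values of role groups and other early genes without KO replicate 2, WT replicate 4 of 6 weeks or both. Sex, inferred from Xist and genes of the Y chromosome, was 3 females and 3 males in KO and 2 and 3 in WT at 12 weeks, and 1 and 2 in KO and 2 and 2 in WT at 6 weeks. At 12 weeks the arrays deposited first were all male in KO and all female in WT, and those deposited second the reverse. In fits of 1 sex at 12 weeks, genotype and order of deposition therefore cannot be told apart. The same holds for genotype and sex in fits of the arrays deposited first or second. Python 3.11.15 (numpy 2.4.6, pandas 2.3.3, matplotlib 3.10.9) was used for tables and plots.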

Additional observations from a re-analysis of the deposited data

Results flagged for a closer look

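Of 114 groups of 4 to 6 arrays examined, 12 held an array whose gap to its nearest neighbour was large for the range of the group by Dixon's test, where chance flags about 1 in 20 groups.

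WT replicate 4 of 6 weeks was such an array in 4 of them, each time at the low end. It had 5.14 for Junb, against 5.91 to 6.01 in the other WT arrays, 5.37 for Nr4a2, against 6.90 to 7.07, 5.94 for Klf6, against 6.50 to 6.61, and a mean member score of -0.39, against 0.05 to 0.07. The same array had the highest choroid plexus and oligodendrocyte scores of the 18 arrays (2.52 and 2.15), and the part of that in its early gene values was not tested. WT replicate 1 of 6 weeks had 5.79 for Fosl2, against 5.10 to 5.13.

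Among the KO arrays of 12 weeks, replicate 3 had 8.63 for Jun, against 7.94 to 8.20, 3.66 for Trib1, against 4.81 to 5.41, and 3.13 for Npas4, against 4.02 to 4.51. Replicate 5 had 5.00 for Fosl2, against 5.16 to 5.25, and replicate 2 had 6.42 for Jund, against 5.02 to 5.52. Among the WT arrays of 12 weeks, replicate 5 had 6.57 for Atf3, against 5.30 to 5.65, and a mean member score of 0.06, against -0.09 to -0.06. The 3 KO arrays of 6 weeks are too few for this test.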

How the results depend on the processing

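For KO against WT at 6 weeks the count of 1 member called became 2 with the brightest probe set of each gene (Zfp36 and Dusp1) and 0 with array weights, with only the groups compared in the fit, with sex as a covariate, without both KO replicate 2 and WT replicate 4, and in females or males alone, and it ran from 0 to 1 when each array was left out. The median difference was 0.07 without both arrays and 0.16 to 0.55 with each array left out, the highest without KO replicate 3. At 12 weeks the count of 0 became 2 (Jun and Homer1) with array weights, with only the groups compared and without both arrays of 6 weeks, and 1 (Jun) with sex as a covariate, and ran from 0 to 1 with each array left out. For 12 against 6 weeks in KO the count of 1 became 2 (Zfp36 and Fos) with the mean of the probe sets and with the brightest, and 0 with only the groups compared, without both arrays, and in females or males alone; it ran from 1 to 2 with each array left out, with 2 without KO replicate 3. Its median was -0.50 with the brightest probe set, 0.05 in females, -0.54 in males and -0.54 to -0.10 with each array left out, the lowest without KO replicate 3. In WT the count of 0 became 1 (Jun) with sex as a covariate and without both arrays. The interaction had 0 members called in each fit, and its median was -0.11 without both arrays; it was not run with only the groups compared. Fits of 1 sex or without 2 arrays hold fewer samples; the cause of the other changes was not tested.

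Replicate numbers recur in KO and WT. Deviations of same-numbered arrays correlated at 0.24, -0.36 and -0.20 at 6 weeks and at 0.02 to 0.10 at 12 weeks. With so few arrays these correlations cannot decide whether the numbers pair the samples. With the number as a replicate block the count was 0 at 6 weeks (Zfp36 1.15, limma adjusted p = 0.126) and 1 for 12 against 6 weeks in KO (Zfp36 -1.52, limma adjusted p = 0.0285), and no other count changed.

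A value counted as kept if its direction and side of the threshold stayed, however far its size moved. Egr1 at 6 weeks, for example, was kept with 0.31 without both KO replicate 2 and WT replicate 4, against 1.16 in the main fit. Of 1248 values of named genes under alternatives, 1196 were kept in this sense, 18 lost a call, 15 gained one and 19 changed sign. Those were, for Arc at 6 weeks, -0.13 with the brightest probe set, -0.12 in males, -0.02 without KO replicate 3 and -0.03 without WT replicate 4 (-0.03 to 0.29 with each array left out), and at 12 weeks 0.07 in the arrays deposited second. For Arc between stages in KO they were 0.03 with the mean and 0.12 with the brightest probe set, and 0.06, 0.09, 0.01 and 0.04 with single arrays left out (-0.22 to 0.09 in all). At 12 weeks Klf2 had -0.09 with the mean and -0.38 with the brightest probe set, and Fos -0.12 and -0.27 with the same, -0.38 in the arrays deposited first and -0.01 without WT replicate 3 (-0.01 to 0.23 with each array left out). In females Fos between stages in WT was 0.13 and the interaction of Nr4a1 was 0.06.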
